A study of Mus musculus with 21 samples.

Results

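The Bcl2 family genes that set the threshold for mitochondrial cell death were followed across sorted mouse bone marrow progenitors that had or lacked Dot1l. The set was fixed by name and held 10 genes, Bcl2, Bcl2l1, Mcl1, Bax, Bak1, Bcl2l11, Bbc3, Pmaip1, Bid and Bad, where the arrays measured 18194 genes in all. Of these 10, 9 had at least 1 probe set annotated to them alone, 29 probe sets in all. No probe set was paired with Bax in the annotation used, so Bax was not analysed here. The probe set with the highest average over the 21 arrays stands for each gene, and the others are given beside it.

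All cells came from C57/BL6 mice with the Mx-Cre transgene, an interferon-inducible Cre recombinase, and both genotypes received PIPC, the agent that switches it on. Because the controls (Dot1 wt/wt x Mx-Cre) carried the same transgene, the groups differed in the Dot1l allele, wild type in controls and floxed (Dot1l fl/fl x Mx-Cre) in the Dot1l -/- mice. Mx-Cre acts in blood cells and in other tissues, so the deletion was not limited to the sorted cells. Dot1l encodes a histone H3 methyltransferase. There were 4 Dot1l-deleted and 5 control arrays of granulocyte-macrophage progenitors (GMP), and 6 Dot1l-deleted and 6 control arrays of LSK cells (no lineage markers, with Sca-1 and Kit), the fraction that holds stem and multipotent cells. No source used here gives the age of the mice, the time after injection, or whether arrays come from different animals, so the p-values speak only to the spread among these arrays, which may be technical. K numbers name the arrays as in the sample titles, and arrays of the 2 cell types with the same number are separate arrays. Values are log2 of the deposited array intensity, a scale on which different probe sets cannot be ranked against each other.

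As background, Bcl2 family proteins meet at the outer mitochondrial membrane. BCL2, BCL-XL (from Bcl2l1) and MCL1 keep cells alive by binding their relatives. BAX and BAK (from Bak1) form the pores that release cytochrome c and start the caspase cascade. The BH3-only proteins BIM (from Bcl2l11), PUMA (Bbc3), NOXA (Pmaip1), BID and BAD sense stress, lost growth factor signals or DNA damage and either block the survival proteins or switch on the pore formers. In mice, blood stem cells depend on Mcl1, and PUMA and NOXA are textbook targets of p53.

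Mean levels of GMP markers separated the labelled cell types in both genotypes, and those of stem and multipotent markers did so in controls only. The mean level of 6 GMP markers was 11.23 to 12.26 in Dot1l-deleted GMP and 11.90 to 12.54 in control GMP, against 7.83 to 11.02 in Dot1l-deleted LSK and 7.88 to 10.27 in control LSK, and 4 stem and multipotent cell markers were at 4.85 to 5.60, 4.27 to 5.10, 5.47 to 9.33 and 9.09 to 9.60 in the same order. Of the sort markers of LSK cells only Kit was measured. Dot1l itself had 2 probe sets, with log2 fold changes after deletion of -0.10 and -0.19 in LSK and -0.52 and -0.54 in GMP, and 0 of these passed over all probe sets. Whether they lie in the deleted part is not given, so they do not check the genotype. A pair of arrays stood apart. The Dot1l-deleted LSK array K1272 correlated with the rest of its group at an average Spearman coefficient of 0.649 and the control GMP array K1603 had 0.81, where the other 19 arrays had 0.85 or more. K1272 was also the highest Dot1l-deleted LSK array for erythroid markers, at 8.47 against 6.07 for the next, and for megakaryocyte markers, at 9.26 against 8.09. Late neutrophil markers lay at 6.56 to 7.42 in Dot1l-deleted GMP, 7.57 to 8.18 in control GMP, 5.69 to 7.53 in Dot1l-deleted LSK and 7.35 to 11.77 in control LSK. The part of other cell types in the values below was not tested. In bulk samples such as these, fewer cells of a type and less RNA per cell cannot be told apart. The Dot1l-deleted GMP arrays K1190 and K1272 were the closest pair of any group, with a Spearman correlation of 0.988. Upper quartiles of the log2 values were 6.19 to 6.57 on control GMP arrays and 6.60 to 6.76 on control LSK arrays, with no overlap. Fits below with these quartiles as a covariate therefore cannot fully separate them from cell type in controls.

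Of the 9 measured members, Bad alone passed the test, in the comparison of cell types within control mice, where it was higher in control GMP than in control LSK. The test was limma's moderated test over all 18194 genes with an adjusted p under 0.05. In that comparison 1 of 9 members was called, where 12% of all genes were, and 3, Bad, Mcl1 and Bcl2, had an unadjusted p under 0.05, as had 33.8% of all genes. The members' median log2 fold change was 0.34 beside 0.29 over all genes. Neither deletion comparison called a member. In LSK cells limma called 0 of 9 members and 0% of all genes, and 2 members, Pmaip1 and Bad, had an unadjusted p under 0.05, as had 5.61% of all genes. In GMP limma called 0 of 9 members and 0.143% of all genes, and 2 members, Bcl2l1 and Bad, had an unadjusted p under 0.05, as had 13.9% of all genes. Median log2 fold changes of the members were -0.16 in LSK and -0.15 in GMP, beside 0.06 and -0.20 over all genes. Between Dot1l-deleted GMP and Dot1l-deleted LSK, limma called 0 of 9 members and 0.143% of all genes, with 0 members at an unadjusted p under 0.05, beside 7.28% of all genes. For the difference of the deletion effects, GMP minus LSK, limma called 0 of 9 members and 0.033% of all genes, and 1 member, Bad, had an unadjusted p under 0.05, as had 13.6% of all genes. The cell type comparison in controls and the deletion comparison in GMP share the control GMP arrays.

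**Figure D1:**
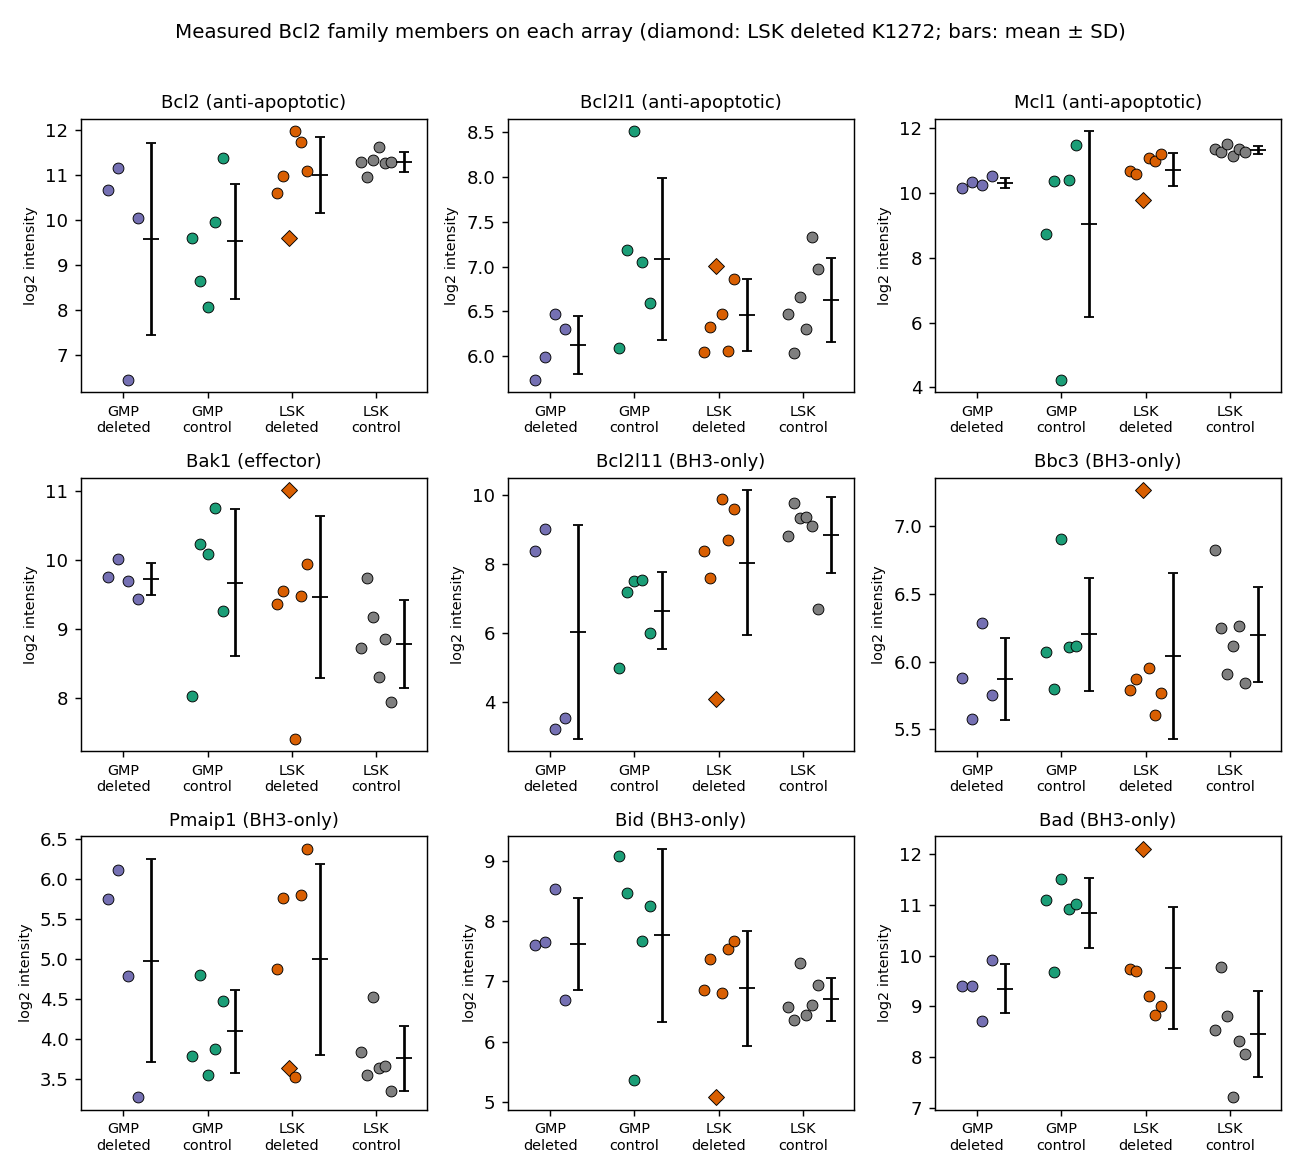
log2 intensity of the 9 measured members on each array, by group (deleted and control GMP, then deleted and control LSK), with the mean ± SD beside the points. Bad lay between 9.67 and 11.52 in control GMP and between 7.21 and 9.79 in control LSK, and the Dot1l-deleted LSK array K1272 (diamond) sat far from its group for Bad, Bbc3 and Bid.

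**Figure D2:**
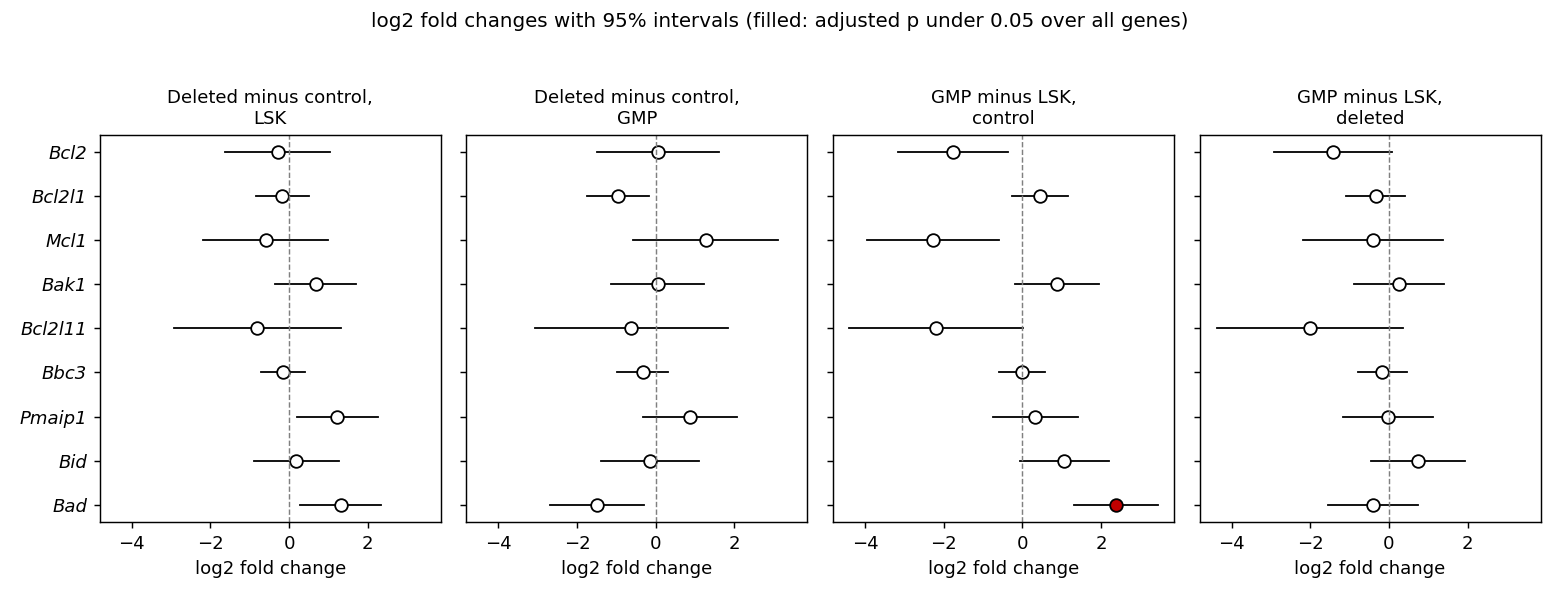
log2 fold changes of the 9 members with 95% intervals in 4 comparisons. The only filled point, which marks an adjusted p under 0.05, is Bad in control GMP against control LSK, at 2.39.

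Mcl1 encodes a short-lived survival protein that blocks BAK and BIM. Its level in control GMP was 8.75 on K1601, 10.38 on K1602, 4.23 on K1603, 10.41 on K1604 and 11.48 on K1581, and in control LSK it lay at 11.15 to 11.51 with a median of 11.32. Of the control GMP arrays, K1581 lay within the control LSK range and the other 4 below it. The log2 fold change, control GMP minus control LSK, was -2.27 ± 0.80 (SE), with an adjusted p of 0.0663. All 6 Mcl1 probe sets had a negative log2 fold change in this comparison, from -2.27 to -0.82, and 0 of them passed the test over all probe sets. Without K1603 the fold change was -1.07 ± 0.36, with an adjusted p of 0.0826. The Dot1l-deleted LSK array K1272 enters here only through the shared estimate of spread, and when it was left out the fold change of -2.27 passed, with an adjusted p of 0.0419. It also passed without control GMP K1581 and without control GMP K1602. With the upper quartiles of the arrays as a covariate it was -1.29 ± 0.95, with an adjusted p of 0.507.

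Neither deletion comparison of Mcl1 passed. Dot1l-deleted GMP had 10.16 on K1190, 10.35 on K1272, 10.24 on K1359 and 10.53 on K1421, all inside the control GMP range. Their log2 fold change of 1.27 ± 0.89 (SE, adjusted p 0.481) was 0.065 ± 0.40 without control GMP K1603. All 6 probe sets had positive values in this comparison, from 0.52 to 1.27. On 1448503_at the groups did not overlap, as for 4.78% of all genes, with 9.69 to 10.19 in Dot1l-deleted GMP and 8.43 to 9.66 in control GMP, a log2 fold change of 0.87 ± 0.50 and an adjusted p of 0.44 over all probe sets. Dot1l-deleted LSK had 9.78 to 11.21 with a median of 10.83. Of these 6 arrays the highest, K1422, alone reached the control LSK range, which began at 11.15. In LSK the log2 fold change was -0.60 ± 0.76, with an adjusted p of 0.985, and -0.41 without K1272. Between the deleted cell types the representing probe set had -0.41, with a 95% interval of -2.18 to 1.37, while 1448503_at had 0.65.

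Bcl2, the founding survival gene of the family, had a level of 9.59 on K1601, 8.65 on K1602, 8.06 on K1603, 9.95 on K1604 and 11.39 on K1581 in control GMP. In control LSK it lay at 10.95 to 11.62 with a median of 11.29. Of the 5 control GMP arrays, 4 were below every control LSK array and K1581 lay within the control LSK range. Control GMP minus control LSK gave a log2 fold change of -1.76 ± 0.67 (SE), with an adjusted p of 0.0842. It passed when the Dot1l-deleted LSK array K1272, the control GMP array K1581 or the Dot1l-deleted GMP array K1359 was left out, and not when the control GMP array K1603 was, at -1.39 with an adjusted p of 0.213. With the arrays' upper quartiles as a covariate it was -0.53 ± 0.70, with an adjusted p of 0.743. All 5 Bcl2 probe sets had negative values here. Of these 1, 1437122_at, passed the test over all probe sets, with -1.41 ± 0.32 and an adjusted p of 0.0123. The levels of 1437122_at were 4.90 on K1601, 4.63 on K1602, 4.20 on K1603, 4.55 on K1604 and 5.08 on K1581 in control GMP against 5.19 to 7.24 with a median of 5.96 in control LSK. The groups did not overlap, as for 14.7% of all genes.

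After deletion, Bcl2 was 10.67 on K1190, 11.16 on K1272, 6.46 on K1359 and 10.05 on K1421 in GMP, with K1359 below every other array of the series. The log2 fold change against control GMP was 0.056, with a 95% interval of -1.50 to 1.61, and it lay between -0.47 and 1.10 with single arrays left out. Of the 5 probe sets 4 had positive values here. The groups did not overlap on 1437122_at, at 1.06 ± 0.36 with an adjusted p of 0.241 over all probe sets, nor on 1443837_x_at, at -0.49 ± 0.71 with an adjusted p of 0.745. Over all genes, 4.78% did not overlap here by their representing probe sets. Levels of 1443837_x_at were low, at 2.76 to 2.98 in Dot1l-deleted GMP and 3.03 to 3.53 in control GMP. Dot1l-deleted LSK had 9.61 to 11.97 with a median of 11.03, spread on both sides of the control LSK range, and a fold change of -0.29 with an interval of -1.63 to 1.05, and -0.013 without the LSK array K1272. In the deleted mice the difference between GMP and LSK was -1.41 ± 0.72, with an adjusted p of 0.73.

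Bcl2l1, whose product BCL-XL protects erythroid cells and platelets, had a level of 5.74 on K1190, 5.99 on K1272, 6.48 on K1359 and 6.30 on K1421 in Dot1l-deleted GMP. Control GMP had 6.10 on K1601, 7.19 on K1602, 8.51 on K1603, 7.05 on K1604 and 6.60 on K1581. Of the deleted arrays K1190 and K1272 lay below every control and the other 2 within the control range, with a log2 fold change of -0.96 ± 0.38 (SE) and an adjusted p of 0.279, and -0.61 without control GMP K1603. The 3 other Bcl2l1 probe sets had -0.56, -0.32 and 0.13. In LSK the levels were 6.04 to 7.01 with a median of 6.40 after deletion and 6.04 to 7.34 with a median of 6.57 in controls, with a log2 fold change of -0.17 and a 95% interval of -0.85 to 0.51. Between control cell types it was 0.46 ± 0.34, with an adjusted p of 0.325, and 0.13 with the upper quartiles as a covariate. The 4 probe sets split 2 positive and 2 negative.

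Bak1, the pore former resident at mitochondria, was measured by 2 probe sets, of which 1 passed between the control cell types. The representing one had 8.02 on K1601, 10.24 on K1602, 10.09 on K1603, 10.75 on K1604 and 9.26 on K1581 in control GMP and 7.93 to 9.74 with a median of 8.79 in control LSK. These ranges overlapped, with a log2 fold change of 0.88 ± 0.51 (SE) and an adjusted p of 0.216. The other, 1418991_at, had 9.70 on K1601, 9.55 on K1602, 10.16 on K1603, 10.38 on K1604 and 8.72 on K1581 in control GMP against 6.61 to 8.42 with a median of 8.19 in control LSK. It did not overlap, as for 14.7% of all genes by their representing probe sets. It passed the test over all probe sets, with 1.72 ± 0.40 and an adjusted p of 0.012. For the same probe set Dot1l-deleted GMP had 8.80 on K1190, 9.02 on K1272, 9.04 on K1359 and 7.54 on K1421, and the log2 fold change against control GMP was -1.10 ± 0.44, with an adjusted p of 0.308, while the representing probe set had 0.054. In LSK the representing probe set had 7.41 to 11.02 with a median of 9.52 after deletion, with K1272 highest and K1359 lowest, and a fold change of 0.68, with a 95% interval of -0.35 to 1.70, and 0.36 without K1272. For deletion in LSK 1418991_at had 0.099 ± 0.38, with an adjusted p of 0.994 over all probe sets.

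**Figure D3:**
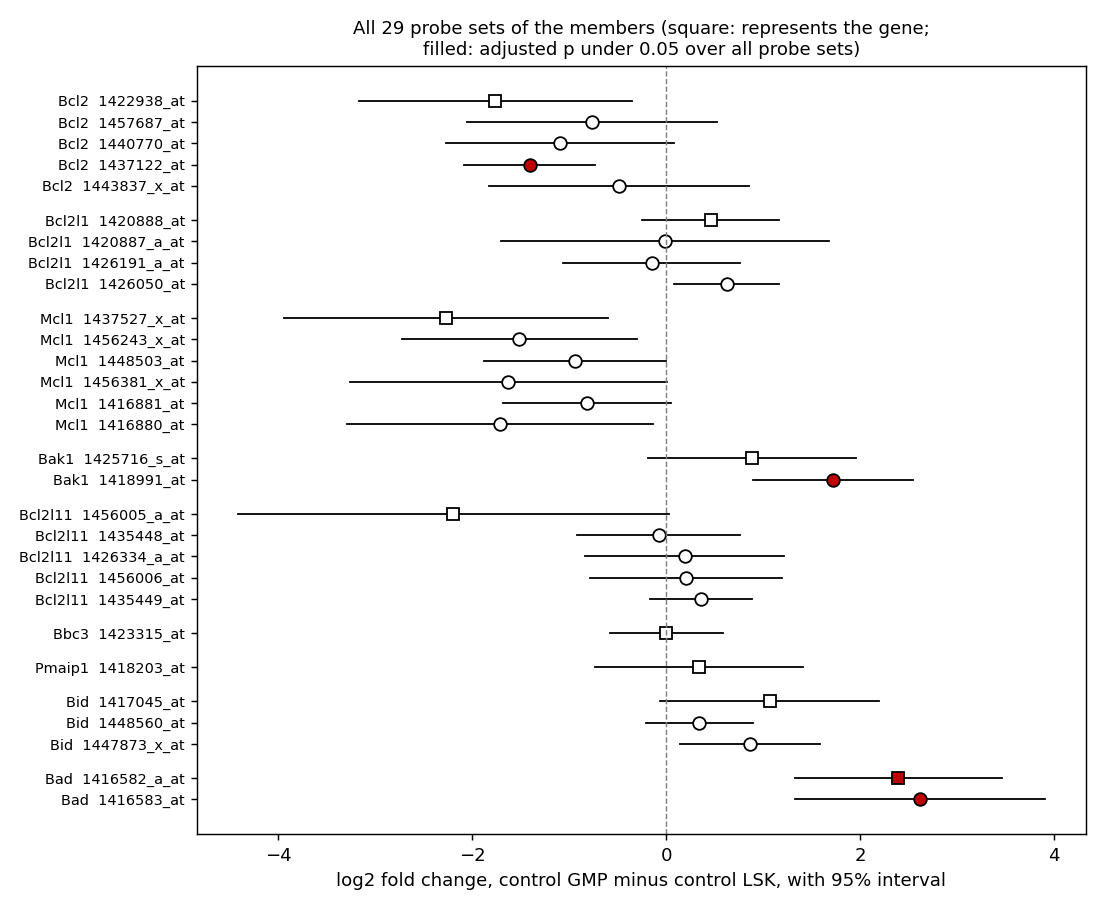
log2 fold change, control GMP minus control LSK, of all 29 probe sets of the 9 members, with 95% intervals. Filled points passed an adjusted p under 0.05 over all probe sets: both of Bad, 1 of 2 for Bak1 and 1 of 5 for Bcl2, and all 6 Mcl1 points lie left of 0.

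In all, 4 of the 29 probe sets passed over all 45101 in control GMP against control LSK, 3 higher and 1 lower, where 9.59% of all probe sets did. Probe sets of 1 gene share its transcripts and are not independent. In the other 4 comparisons limma called 0 of the 29, with smallest adjusted p of 0.753 for deletion in LSK, 0.241 for deletion in GMP, 0.21 for the difference of effects and 0.152 between the deleted cell types. Over all probe sets 0.00443%, 0.0754%, 0.0133% and 0.0976% were called in these comparisons.

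Bad encodes a BH3-only protein that binds BCL2 and BCL-XL and is held inactive by phosphorylation when growth factors signal. Its level was 11.11 on K1601, 9.67 on K1602, 11.52 on K1603, 10.92 on K1604 and 11.01 on K1581 in control GMP. In control LSK it lay at 7.21 to 9.79 with a median of 8.43. The ranges overlapped only through control GMP K1602 and control LSK K1602. The mean was 10.85 ± 0.70 (SD, n = 5) in control GMP and 8.46 ± 0.85 (SD, n = 6) in control LSK, a log2 fold change of 2.39 ± 0.51 (SE) or 5.25-fold, with a limma adjusted p of 0.00621. The other Bad probe set, 1416583_at, had 9.51 on K1601, 8.65 on K1602, 10.19 on K1603, 9.29 on K1604 and 8.53 on K1581 in control GMP against 5.20 to 7.66 with a median of 6.91 in control LSK. Here the groups did not overlap, as for 14.7% of all genes by their representing probe sets. The log2 fold change was 2.62 ± 0.62, with an adjusted p of 0.0138 over all 45101 probe sets. The call was lost when the arrays' upper quartiles entered as a covariate, which gave a log2 fold change of 1.45 ± 0.53 and an adjusted p of 0.145. Because these quartiles did not overlap between the 2 groups, that fit can take up part of a cell type difference. With the K number as a replicate block, on 18 arrays, the call was lost as well, at 2.31 ± 0.58 with an adjusted p of 0.0686. It held in each fit that left out 1 array.

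In Dot1l-deleted mice Bad did not pass the test between the cell types. Dot1l-deleted GMP had 9.40 on K1190, 9.40 on K1272, 8.72 on K1359 and 9.91 on K1421, and Dot1l-deleted LSK 8.84 to 12.11 with a median of 9.45. The highest of these LSK values was on K1272, and on the other probe set K1272 was highest at 11.40. The log2 fold change, Dot1l-deleted GMP minus Dot1l-deleted LSK, was -0.41 with a 95% interval of -1.55 to 0.73, and 0.057 without K1272. Set against controls, GMP without Dot1l had a log2 fold change of -1.49 ± 0.57 (SE), with an adjusted p of 0.267. Of the 4 deleted GMP arrays 1, K1421, reached into the control GMP range, at its lowest end. In LSK the fold change of the representing probe set was 1.31 ± 0.49, with an adjusted p of 0.689, and 0.84 ± 0.38 without K1272. The other probe set had 1.49 ± 0.59, with an adjusted p of 0.805 over all probe sets. These LSK groups overlapped. On the representing probe set the difference of the deletion effects, GMP minus LSK, was -2.80 ± 0.75, with an adjusted p of 0.181, and -2.33 without K1272. On 1416583_at it was -2.83 ± 0.90, with an adjusted p of 0.282 over all probe sets.

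**Figure D4:**
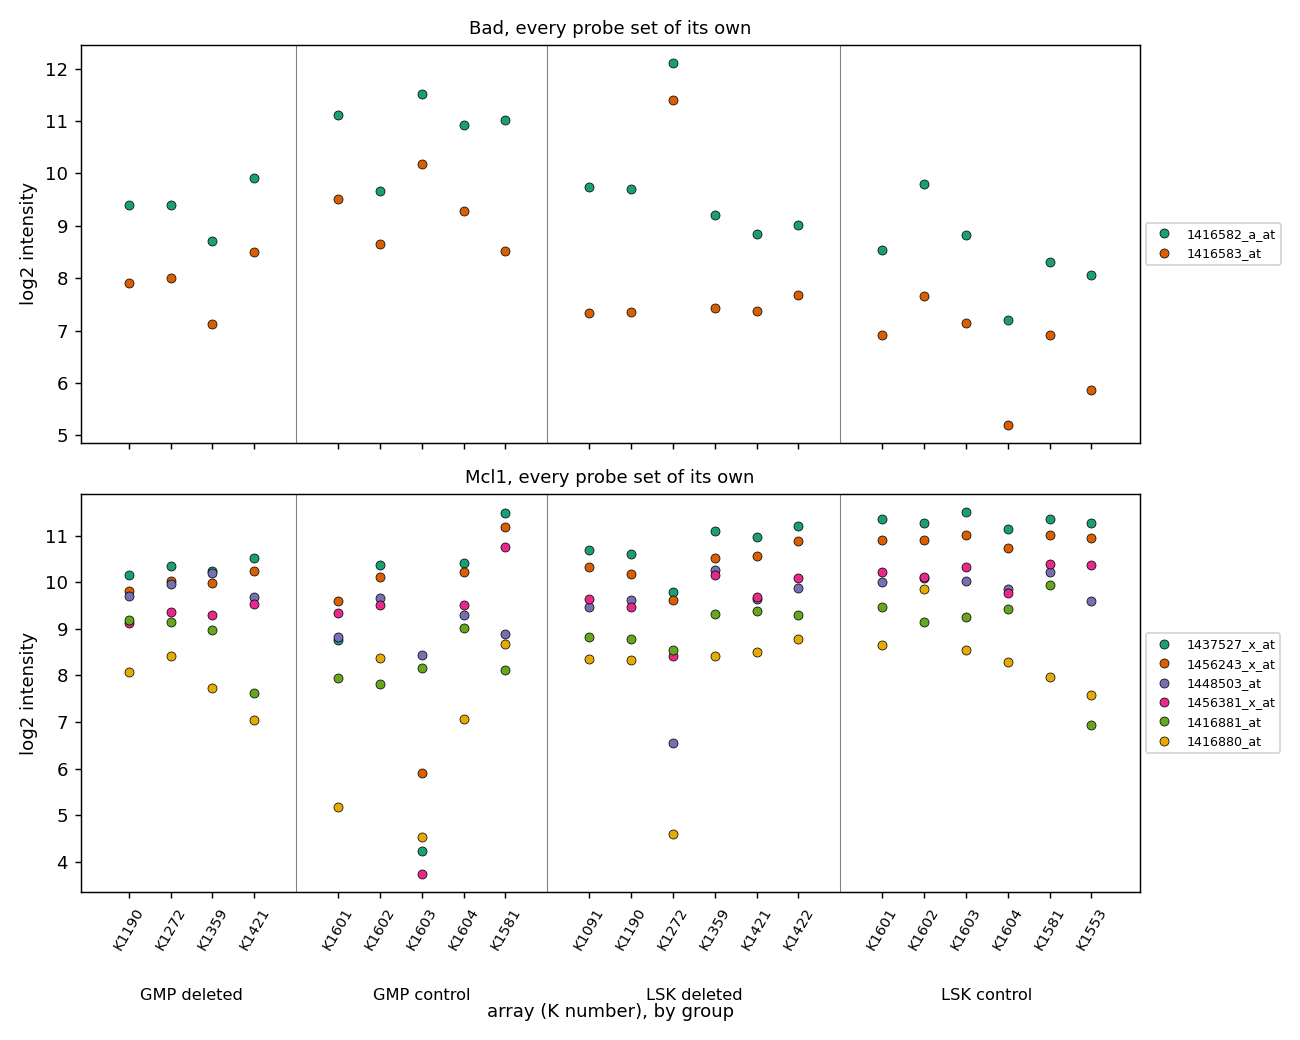
log2 intensity of the 2 Bad probe sets and the 6 Mcl1 probe sets on each array, by group. Both Bad probe sets were highest on Dot1l-deleted LSK K1272 within their group, and on control GMP K1603 the Mcl1 probe sets 1437527_x_at and 1456381_x_at had 4.23 and 3.73 while 1448503_at had 8.43.

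The upstream windows of Bad, and of Bcl2 and Mcl1 whose probe sets all had negative values between control GMP and control LSK, are printed from RefSeq (GRCm38.p6) as the 250 bases before each annotated start. Capitals mark matches on either strand to GAGGAA, a core of sites for the myeloid factor PU.1, CACGTG, the E-box bound by MYC and its relatives, or TTCNNNGAA, a STAT site. No matches of different motifs overlapped in these windows.
Bad start A, chr19:6941611-6941860, + strand: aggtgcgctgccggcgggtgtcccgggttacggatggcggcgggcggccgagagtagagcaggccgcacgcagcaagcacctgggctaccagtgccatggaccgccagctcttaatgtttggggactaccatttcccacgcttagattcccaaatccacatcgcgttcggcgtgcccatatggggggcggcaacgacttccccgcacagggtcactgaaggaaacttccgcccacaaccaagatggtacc
Bad start B, chr19:6942312-6942561, + strand: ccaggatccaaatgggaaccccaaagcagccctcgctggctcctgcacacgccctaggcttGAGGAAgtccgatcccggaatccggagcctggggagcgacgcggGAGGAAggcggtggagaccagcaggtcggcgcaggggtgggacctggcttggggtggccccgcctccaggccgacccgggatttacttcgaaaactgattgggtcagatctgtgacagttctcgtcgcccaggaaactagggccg
Bcl2, chr1:106714291-106714540, - strand: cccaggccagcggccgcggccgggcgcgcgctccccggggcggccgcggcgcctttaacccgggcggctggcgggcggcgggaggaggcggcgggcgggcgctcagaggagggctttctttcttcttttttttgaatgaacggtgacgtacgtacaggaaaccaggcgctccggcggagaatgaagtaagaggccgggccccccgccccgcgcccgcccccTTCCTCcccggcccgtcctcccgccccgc
Mcl1, chr3:95658471-95658720, + strand: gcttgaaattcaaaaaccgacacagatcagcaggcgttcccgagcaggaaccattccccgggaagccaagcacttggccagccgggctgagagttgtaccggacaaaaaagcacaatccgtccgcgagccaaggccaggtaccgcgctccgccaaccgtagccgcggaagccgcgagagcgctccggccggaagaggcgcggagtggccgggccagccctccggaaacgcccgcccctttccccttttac
The second Bad window held 2 PU.1 cores, 189 and 145 bases before the start, and the Bcl2 window 1, at 29 bases, while the first Bad window and the Mcl1 window held no match to any of these letters. Of all 32851 windows 23.3% held a PU.1 core, 6.02% an E-box and 7.02% a STAT site. The share of G and C was 62.8% and 64.8% in the Bad windows, 74.8% for Bcl2 and 64.4% for Mcl1, beside a median of 52.4% over all windows. RefSeq windows were matched for 9 of the 10 genes, Bax included, 15 in all. A PU.1 core lay in 4 of these 15, those of Bcl2, Bak1, Bid and the second Bad start, an E-box in 2, those of Bax and of 1 Bbc3 start, and a STAT site in 0.

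Bcl2l11, the gene of BIM, a protein that removes blood cells deprived of cytokines, had the widest range of group means of the 9 members, 2.81 on the log2 scale. Dot1l-deleted GMP had 8.37 on K1190, 9.001 on K1272, 3.21 on K1359 and 3.53 on K1421, so K1190 and K1272 lay above every control GMP array and the other 2 below. Control GMP had 4.997 on K1601, 7.19 on K1602, 7.50 on K1603, 7.53 on K1604 and 5.998 on K1581. Levels in LSK were 4.09 to 9.88 with a median of 8.53 after deletion, with K1272 lowest, and 6.70 to 9.75 with a median of 9.20 in controls, with K1553 lowest. None of the 5 comparisons passed. The log2 fold change was -0.62 ± 1.18 (SE) for deletion in GMP, -0.81 ± 1.02 for deletion in LSK and -2.20 ± 1.07 for control GMP against control LSK, with adjusted p of 0.794, 0.985 and 0.152. The 4 other probe sets had -0.077 to 0.36 in the last comparison, so the size of that value rests on 1 probe set. With the upper quartiles as a covariate it turned to 0.59. Without K1272 the deletion effect in LSK was -0.016. Between the deleted cell types, GMP minus LSK, the representing probe set had -2.01 ± 1.14, with an adjusted p of 0.824. The probe set 1435449_at had 1.11 ± 0.27 there, with an adjusted p of 0.152 over all probe sets. Of the 5 probe sets 2 had positive and 3 negative values in that comparison.

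Pmaip1, the gene of NOXA, which neutralises MCL1, was measured by 1 probe set. Dot1l-deleted LSK had 4.87 on K1091, 5.75 on K1190, 3.65 on K1272, 3.54 on K1359, 5.80 on K1421 and 6.37 on K1422, and control LSK 3.36 to 4.52 with a median of 3.66. Of the 6 deleted arrays 4 lay above every control, and K1272 and K1359 lay within the control range. Deletion in LSK gave a log2 fold change of 1.23 ± 0.49 (SE), with an adjusted p of 0.774, and 1.50 ± 0.49 without K1272, with an adjusted p of 0.521. With arrays weighted gene by gene for quality it passed, at 1.55 with an adjusted p of 0.0176. In that fit the 2 deleted arrays within the control range had the lowest weights of their group, 0.072 on K1272 and 0.75 on K1359. The other 4 had 1.41 to 2.40. Levels in Dot1l-deleted GMP were 5.74 on K1190, 6.10 on K1272, 4.78 on K1359 and 3.28 on K1421, against 3.80 on K1601, 4.80 on K1602, 3.55 on K1603, 3.88 on K1604 and 4.48 on K1581 in control GMP. Here 2 of the 4 deleted arrays, the close pair K1190 and K1272, lay above every control, K1359 lay within the control range and K1421 below it. The fold change was 0.88 ± 0.57, with an adjusted p of 0.459, and 0.56 with that pair averaged as 1 sample. Control GMP and control LSK had a log2 fold change of 0.34, with a 95% interval of -0.74 to 1.41. With the upper quartiles as a covariate it was 1.51 ± 0.45, with an adjusted p of 0.0772.

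Bid, which links death receptors to mitochondria once caspase-8 has cut its product, had 9.08 on K1601, 8.48 on K1602, 5.36 on K1603, 7.68 on K1604 and 8.25 on K1581 in control GMP and 6.36 to 7.30 with a median of 6.59 in control LSK. All control GMP arrays but K1603 were above every control LSK array. Control GMP minus control LSK gave 1.07 ± 0.54 (SE), with an adjusted p of 0.166, and 1.67 ± 0.44 without K1603, with an adjusted p of 0.0273. With the upper quartiles as a covariate it was 1.87 ± 0.61, with an adjusted p of 0.103. All 3 Bid probe sets had positive values, from 0.34 to 1.07. Deletion gave -0.15 in GMP, with a 95% interval of -1.40 to 1.10, and 0.19 in LSK, with an interval of -0.89 to 1.26. Without K1603 the value in GMP was -0.75 and without K1272 the value in LSK was 0.55.

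Bbc3, the gene of PUMA, had the narrowest range of group means of the members, 0.33. Its level was 5.88 on K1190, 5.57 on K1272, 6.28 on K1359 and 5.75 on K1421 in Dot1l-deleted GMP and 6.07 on K1601, 5.80 on K1602, 6.90 on K1603, 6.11 on K1604 and 6.12 on K1581 in control GMP. Dot1l-deleted LSK lay at 5.61 to 7.27 with a median of 5.83, with K1272 highest, and control LSK at 5.84 to 6.83 with a median of 6.18. The 95% intervals of its log2 fold change were -0.98 to 0.32 for deletion in GMP, -0.71 to 0.40 for deletion in LSK and -0.58 to 0.58 for control GMP against control LSK. With the upper quartiles as a covariate the last was -0.56, against 0.00097 without it. Without K1272 the log2 fold change in LSK was -0.40, against -0.16 with it.

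By mean level, control LSK ranked highest of the 4 groups for Mcl1, Bcl2 and Bcl2l11, and lowest for Bad, Bid, Bak1 and Pmaip1. The order was control LSK, Dot1l-deleted LSK, Dot1l-deleted GMP and control GMP for both Mcl1 and Bcl2. It was control GMP, Dot1l-deleted LSK, Dot1l-deleted GMP and control LSK for Bad. These orders hang on single arrays. Without K1272, Bad in Dot1l-deleted GMP minus Dot1l-deleted LSK was 0.057. Without control GMP K1603, Bcl2 in Dot1l-deleted minus control GMP was -0.31. By median, Mcl1 was 10.38 in control GMP and 10.29 in Dot1l-deleted GMP. Control GMP ranked highest for Bid, Bcl2l1 and Bbc3, Dot1l-deleted GMP for Bak1 and Dot1l-deleted LSK for Pmaip1. In each member, any 2 groups that were neighbours in its order of means had overlapping ranges, 27 pairs in all.

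Across the 21 arrays, which include 4 groups and the arrays that stood apart, the genes whose levels most resembled Bad were Exosc6, Banf1 and Eif4ebp1, with Pearson correlations of 0.92, 0.91 and 0.90. For Bcl2l11, the other member with the widest range of group means, they were Elf4, Scaf4 and Irf9, with 0.86, 0.85 and 0.84. These values describe likeness over arrays of the same series, scaled together.

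The wider death machinery was covered by 5 lists, 65 measured of 73 genes named. In control GMP against control LSK, 13 of the 65 passed over all genes, 4 higher and 9 lower, beside 7.03% and 4.95% of all genes. Among 15 measured genes of p53 and its targets 4 fell and 0 rose, with a median log2 fold change of -0.55. Medians of the other lists were -0.92 for regulators of the family, 0.27 for other Bcl2 family genes, 0.32 for the death receptor pathway and -0.061 for the apoptosome and caspases. Trp53inp1, a p53-induced autophagy and death gene, had 5.85 ± 1.20 in control GMP and 9.27 ± 0.30 in control LSK (SD, n = 5 and 6), a log2 fold change of -3.42 ± 0.59 (SE). Mdm2, the ubiquitin ligase that degrades p53 and is itself its target, had 6.27 ± 0.14 in control GMP and 9.46 ± 1.05 in control LSK, a change of -3.19 ± 0.57. Its relative Mdm4 fell by 1.95 on the log2 scale and the ribonucleotide reductase subunit gene Rrm2b by 1.60. Trp53 itself had no probe set of its own in the annotation used.

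Of 14 regulators of the family, 3 fell and 1 rose in control GMP. Foxo3, a transcription factor that induces Bim and Puma when growth factors are withdrawn, had 8.53 ± 0.99 in control GMP and 10.46 ± 0.59 in control LSK (SD, n = 5 and 6), a log2 fold change of -1.93 ± 0.48 (SE). Ddit3, the stress factor CHOP, changed by -1.45 ± 0.32, and Pim1, a kinase that phosphorylates BAD, by -1.41 ± 0.37. Trp73, a p53 relative, rose by 0.95 ± 0.22. Of 11 other Bcl2 family genes 1 rose, the BH3-only gene Hrk, at 1.33 ± 0.32. The death receptor list had 1 gene higher and 1 lower of 9, with the receptor gene Tnfrsf1a at 1.13 ± 0.34 and Tnfsf10, the gene of the ligand TRAIL, at -2.41 ± 0.51. Of 16 apoptosome and caspase genes, Endog, a mitochondrial nuclease gene, rose by 2.33 ± 0.76 and the effector caspase gene Casp6 changed by -0.82 ± 0.26. Adjusted p lay between 0.0013 and 0.0497 for these 13 genes. Casp6, Endog and Mdm4 overlapped between control GMP and control LSK, and the others did not, where 14.7% of all genes did not overlap. These 13 genes were picked by their call in this same comparison, so their lack of overlap adds no support. The count of 13 was 3 with the upper quartiles as a covariate, 23 without the Dot1l-deleted LSK array K1272 and 8 without the control GMP array K1603.

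Limma called 0 of the 65 genes for deletion in LSK, for deletion in GMP, for the difference of effects and between the deleted cell types. At an unadjusted p under 0.05 there were 5, 13, 13 and 4 in these comparisons, beside 5.61%, 13.9%, 13.6% and 7.28% of all genes. The difference between the control cell types and the one between the deleted cell types share no arrays, and the test of whether they differ is that of the difference of effects, which 0 of the 65 and 0 of the 9 members passed.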

How the data were processed

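Per the labels' protocols, total RNA of sorted cells was labelled with biotin for Affymetrix mouse arrays. A single table was deposited, with an intensity for 45101 probe sets on 21 arrays that the authors made with RMA (per the submitters' processing notes, without version). Array medians of 25.19 to 31.48 show a linear scale. Background correction, probe summary and normalization are the authors'. Scan batches and a genome build were not found in those notes. With no scanner files used here, probe sets near background cannot be marked.

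The log2 of each intensity was taken with no pseudocount. Of the probe sets, 34958 had 1 gene symbol, 932 several and 9211 none, which gave 18194 genes by the probe set of highest average. Limma 3.58.1 in R 4.3.3 fitted 4 group means over all arrays, with Benjamini-Hochberg adjustment over all genes at 0.05, and a second fit over all probe sets. Promoter windows are RefSeq's on GRCm38.p6. Windows on chr18 were left out before matching and counting, and none of the rest was matched to Pmaip1. Whether a window left out belongs to Pmaip1 was not examined. The fit was tested on simulated data. Members, lists and naming rules (all members, called list genes, and the 3 genes most like the 2 members with the widest range) were chosen with earlier results of these data known. K numbers in the titles occur in both cell types for 5 control and 4 deleted pairs. Deviations of same-numbered arrays correlated from -0.40 to 0.27, and the reported fit did not pair arrays by number. With so few arrays per group these correlations cannot exclude a shared source. Alternatives covered scaling, dim genes, probe set choice, variances, weights, groups fitted, a replicate block and each array left out. Gene-by-gene weights, and K1272 and K1603 left out together, were added after seeing the data. The number of arrays limits the precision.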

Additional observations from a re-analysis of the deposited data

Results flagged for a closer look

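Of 36 combinations of a member and a group, 4 held an array far from the others of its group by Dixon's criterion, where chance flags about 1 in 20. Bad was 12.11 on the Dot1l-deleted LSK array K1272, where the next highest array of the group had 9.74. Bbc3 was 7.27 on the same array, where the next had 5.96. Bid was 5.07 on it, where the next lowest had 6.81. K1272 was the array with the lowest correlation with its own group. Bcl2l11 was 6.70 on the control LSK array K1553, where the next lowest array had 8.81.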

How the results depend on the processing

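Over the alternatives, 1438 of 1543 log2 fold changes of members kept their direction and their side of the threshold, 27 passed it newly, 2 lost it and 76 changed sign, none of the last in a called result. The cause was not tested. The count of called members in control GMP against control LSK, 1 as reported, was 0 with the upper quartile as a covariate, 2 (Bak1, Bad) with the _s_at, _x_at and _a_at probe sets left out, 2 (Bak1, Bad) with all probe sets of a gene averaged, 4 (Bcl2, Bcl2l11, Bid, Bad) with array quality weights, whose estimate stopped before it converged, 3 (Bcl2, Bcl2l11, Bad) with the compared groups fitted alone, 4 (Bcl2, Bcl2l11, Bid, Bad) with gene-by-gene array weights, 3 (Mcl1, Bid, Bad) with K1272 and K1603 both left out and 0 with the K number as a replicate block. It ran from 1 to 3 with single arrays left out, with 3 without Dot1l-deleted LSK K1272 (Bcl2, Mcl1, Bad) or control GMP K1581 (the same genes), and 2 without control GMP K1602 (Mcl1, Bad), control GMP K1603 (Bid, Bad) or Dot1l-deleted GMP K1359 (Bcl2, Bad). Bad lost its call with the upper quartile as a covariate (1.45, adjusted p 0.145) and with the replicate block (2.31, adjusted p 0.0686), which used 18 arrays. Adjusted p over its alternatives ran from 0.000355 to 0.145. Counts of 0 became 1 (Pmaip1) for deletion in LSK with default weights and 1 (Pmaip1) for deletion in LSK with gene-by-gene weights and 1 (Bad) for deletion in GMP with default weights and 3 (Bcl2l1, Pmaip1, Bad) for deletion in GMP with gene-by-gene weights and 1 (Bad) for the difference of effects with default weights and 1 (Bad) for the difference of effects with gene-by-gene weights. The other alternatives kept 0 in these comparisons. The 2 weightings differed in Dot1l-deleted GMP. Gene-by-gene weights were 8.89 on K1190, 2.32 on K1272, 0.25 on K1359 and 0.30 on K1421. Default weights were 0.0080, 4.10, 0.36 and 0.43 in the same order. With the _s_at, _x_at and _a_at probe sets left out, values that changed sign were Bcl2l11 0.23 for deletion in LSK, Bak1 -1.10 for deletion in GMP, Bcl2l11 0.34 for deletion in GMP, Mcl1 0.65 for deleted GMP against deleted LSK, Bcl2l11 0.039 for deleted GMP against deleted LSK. With the upper quartile as a covariate, values that changed sign were Bcl2 -0.58 for deletion in GMP, Bcl2 -0.43 for the difference of effects, Bcl2l11 -1.58 for the difference of effects, Bbc3 0.18 for the difference of effects, Bcl2l11 0.59 for control GMP against control LSK, Bbc3 -0.56 for control GMP against control LSK, Pmaip1 0.41 for deleted GMP against deleted LSK. With the close GMP arrays averaged, values that changed sign were Bcl2 -0.39 for deletion in GMP, Bcl2 -0.096 for the difference of effects, Bcl2l11 -0.70 for the difference of effects. With K1272 and K1603 both left out, values that changed sign were Bcl2 -0.31 for deletion in GMP, Bcl2 -0.30 for the difference of effects, Bcl2l11 -0.39 for the difference of effects, Bbc3 0.25 for the difference of effects, Bbc3 -0.17 for control GMP against control LSK, Bbc3 0.074 for deleted GMP against deleted LSK, Bad 0.057 for deleted GMP against deleted LSK. With quantile normalization, values that changed sign were Bak1 -0.029 for deletion in GMP. With all probe sets of a gene averaged, values that changed sign were Bak1 -0.52 for deletion in GMP, Bid 0.032 for deletion in GMP, Bcl2l11 -0.083 for the difference of effects. With array quality weights, whose estimate stopped before it converged, values that changed sign were Bcl2l11 1.51 for deletion in GMP, Bbc3 0.11 for the difference of effects, Bbc3 -0.25 for control GMP against control LSK, Pmaip1 0.31 for deleted GMP against deleted LSK, Bad 0.043 for deleted GMP against deleted LSK. With gene-by-gene array weights, values that changed sign were Bcl2l11 1.67 for deletion in GMP, Bbc3 0.25 for the difference of effects, Bbc3 -0.21 for control GMP against control LSK, Bbc3 0.041 for deleted GMP against deleted LSK, Pmaip1 0.29 for deleted GMP against deleted LSK, Bad 0.044 for deleted GMP against deleted LSK. With the K number as a replicate block, values that changed sign were Pmaip1 0.039 for the difference of effects, Bbc3 -0.071 for control GMP against control LSK, Pmaip1 0.29 for deleted GMP against deleted LSK. With median centring, values that changed sign were Bbc3 -0.067 for control GMP against control LSK. With single arrays left out, sign changed within these ranges: Bcl2 -0.47 to 1.10 for deletion in GMP, Bak1 -0.36 to 0.32 for deletion in GMP, Bcl2l11 -1.61 to 0.32 for deletion in GMP, Bid -0.75 to 0.18 for deletion in GMP, Bcl2 -0.18 to 1.39 for the difference of effects, Bcl2l11 -0.80 to 1.13 for the difference of effects, Bbc3 -0.31 to 0.073 for the difference of effects, Pmaip1 -0.73 to 0.21 for the difference of effects, Bbc3 -0.17 to 0.13 for control GMP against control LSK, Bak1 -0.15 to 0.57 for deleted GMP against deleted LSK, Bbc3 -0.31 to 0.074 for deleted GMP against deleted LSK, Pmaip1 -0.40 to 0.55 for deleted GMP against deleted LSK, Bad -0.60 to 0.057 for deleted GMP against deleted LSK. Called genes of the wider lists in control GMP against control LSK ran from 0 to 3 for other Bcl2 family genes, from 0 to 7 for apoptosome and caspases, from 1 to 3 for death receptor pathway, from 2 to 6 for p53 and its targets, from 0 to 9 for regulators of the family. Their total, 13 as reported, was 3 with the replicate block and 28 with either kind of array weights.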
